A study of Mus musculus with 10 samples.

Results

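The genes described here are 43 mouse genes that encode cyclins, cyclin-dependent kinases (CDKs), E2F factors with their DP partners, the Rb family of pocket proteins, and the phosphatases, kinase and ubiquitin ligase subunit that switch CDKs or their inhibitors. They were chosen by name and found by matching gene identifiers to symbols, and all 43 were among the 53379 genes in the files and among the 11551 genes with enough reads to be tested. The data are RNA-seq profiles of cells of the Emx1+ lineage sorted from the neocortex of E16 mouse embryos, with 3 cKO-Cdkn1c-MADM-7 embryos (cKO) and 7 control MADM-7 embryos (control). The design asks which transcripts change when Cdkn1c, which encodes the CDK inhibitor p57KIP2, is deleted in cortical cells. All embryos carried Emx1 Cre/+ and MADM cassettes on chromosome 7. The cassettes were MADM-7 GT/TG in control embryos and MADM-7 GT,Cdkn1c/TG,Cdkn1c in cKO embryos, where both copies of chromosome 7 carry the conditional Cdkn1c allele that Cre deletes. MADM (mosaic analysis with double markers) labels cells in which Cre has recombined the cassettes, and all GFP+, tdT+ and GFP+/tdT+ cells were sorted together, 400 cells from 1 embryo per library. Embryos were of a mixed C57BL/6J, CD1 background and were not separated by sex. The driver marks cells that express Cre from Emx1 or descend from such cells, but the libraries also held transcripts of markers of other cell types, red blood cells and interneurons among them. Each library mixes progenitors, which divide, with neurons, which do not, and in such bulk samples fewer cells of a type and less RNA per cell cannot be told apart.

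Cyclins are the regulatory subunits of CDKs. D-type cyclins with Cdk4 and Cdk6 act in G1, E-type cyclins with Cdk2 at the entry into S phase, cyclin A2 in S phase and G2, and B-type cyclins with Cdk1 drive mitosis. CDK activity phosphorylates Rb and its relatives p107 (Rbl1) and p130 (Rbl2), which then release E2F factors bound to DP partners, and genes for DNA replication are transcribed. Genes for mitosis are transcribed later, through promoter elements called CHR and CCAAT boxes that are bound by the DREAM complex, B-Myb, FoxM1 and NF-Y. In the embryonic cortex the radial glial progenitors that divide at the ventricle express Ccnd2 and Ccnd1, and neurons leave the cycle.

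Cdkn1c (chromosome 7, 143458339 to 143461050, GRCm38) was measured first as a check of the labels. CPM values (counts per 1000000 reads on the 11551 genes tested, with library sizes corrected by TMM) were 10.8, 3.94 and 7.64 in cKO replicates 1, 2 and 3, against a range of 67.5 to 131 in controls with a median of 96.0. All cKO libraries lay below all controls, and the log2 fold change was -3.66 with a standard error of 0.38 (edgeR quasi-likelihood test with Benjamini-Hochberg adjustment, as for every adjusted p that follows; adjusted p = 3.68e-06). Cdkn1a, which encodes the related inhibitor p21CIP1, stood at 209, 163 and 360 CPM in the cKO libraries and at 9.71 to 69.2 CPM in controls, and rose by 3.27 on the log2 scale with a standard error of 0.38 (adjusted p = 5.8e-05). Of the 6 CDK inhibitors tested, of 8 listed, these were the only ones that passed the test. Cdkn1b, Cdkn2c, Cdkn2d and Cdkn3 were the others tested.

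Libraries held 1738220 to 3362487 reads on genes, and the shallowest was control replicate 5. Means were 2624536 reads in cKO and 2793531 in control libraries (two-sided exact permutation test, p = 0.583, n = 3 and 7). Genes with at least 1 read numbered 17986 to 18319 in cKO and 16802 to 18100 in controls, with means of 18153 and 17257 (two-sided exact permutation test, p = 0.0333, where the smallest p possible is 0.0167). Reads outside genes made up 5.47% to 8.64% in a set of 1 cKO and 4 control libraries (cKO replicate 3, control replicates 1, 2, 6 and 7) and 12.8% to 16.7% in the other 2 cKO and 3 controls. Standard errors of log2 fold changes had a median of 0.27 over all genes. Projection neuron markers (7 of 7 tested, 0 higher and 2 lower in cKO, the lower ones Neurod6 and Neurod2) summed to 4443 to 6206 CPM in cKO and 6861 to 9367 in controls, without overlap. Radial glial markers (8 of 8 tested, 0 called) summed to 1310, 2500 and 2148 CPM in cKO replicates 1, 2 and 3 and to 1491 to 2519 in controls, with control replicate 5 the highest, and the 5 intermediate progenitor markers (0 called) summed to 558 to 604 and 410 to 954. Cajal-Retzius markers (5 of 5 higher) summed to 534 to 643 CPM in cKO and 16.3 to 161 in controls, and interneuron markers (1 of 6 higher, Dlx2) to 36.6 to 103 and 13.6 to 51.8. Red blood cell markers (0 of 4 called) summed to 20.4 to 2298 CPM and 0.36 to 1637, oligodendrocyte precursor markers to 7.88 to 28.3 and 0 to 83.8, choroid plexus markers to 7.09 to 56.4 and 0 to 20.7 with Kl at 0 in every library, endothelial markers to 0.337 to 18.1 and 0 to 2.91, microglial markers to 0.788 to 27.2 and 0 to 4.68, and pericyte markers to 2.76 to 8.91 and 1.78 to 5.82 with Abcc9 at 0 in every library. The part of these cell types in the results that follow was not tested, except where values are given beside a result.

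Of the 43 genes, 5 rose in cKO (Ccnd2, Ccnb2, Ccnb1, Cdk1 and E2f7) and 0 fell at an adjusted p under 0.05. Over all genes tested, 2.27% were called higher and 0.883% lower. At an unadjusted p under 0.05, 11 of the 43 were higher and 2 lower (Ccni and Ccnl2), where the shares over all genes were 9.25% and 7.11%. The log2 fold change was positive for 29 and negative for 14, with a median of 0.25 over the 43 and 0.01 over all genes tested. The median over the 43 was 0.038 without cKO replicate 2 and 0.15 without control replicate 7, and 0.13 and 0.16 with the radial glial marker sum or the share of reads outside genes in the fit. In 3 genes (Ccnd2, Ccne1 and E2f7) every cKO library lay above every control, and in 0 every cKO library lay below, where the shares over all genes were 3.32% and 2.68%. The number of calls moved with the libraries used. Without cKO replicate 1, 6 of the 43 were called higher (2.1% of all genes). Without cKO replicate 2 only Ccnd2 was called higher (2.32% of all genes), and without cKO replicate 3 Ccnd2 and E2f7 were (1.62% of all genes). Without control replicate 1 or 3 it was 3 genes (1.79% and 1.82% of all genes), without control replicate 2, 4 or 7 it was 2 (1.77%, 1.82% and 1.8%), and without control replicate 5 or 6 it was 5 (2.01% and 2.13%).

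**Figure D1:**
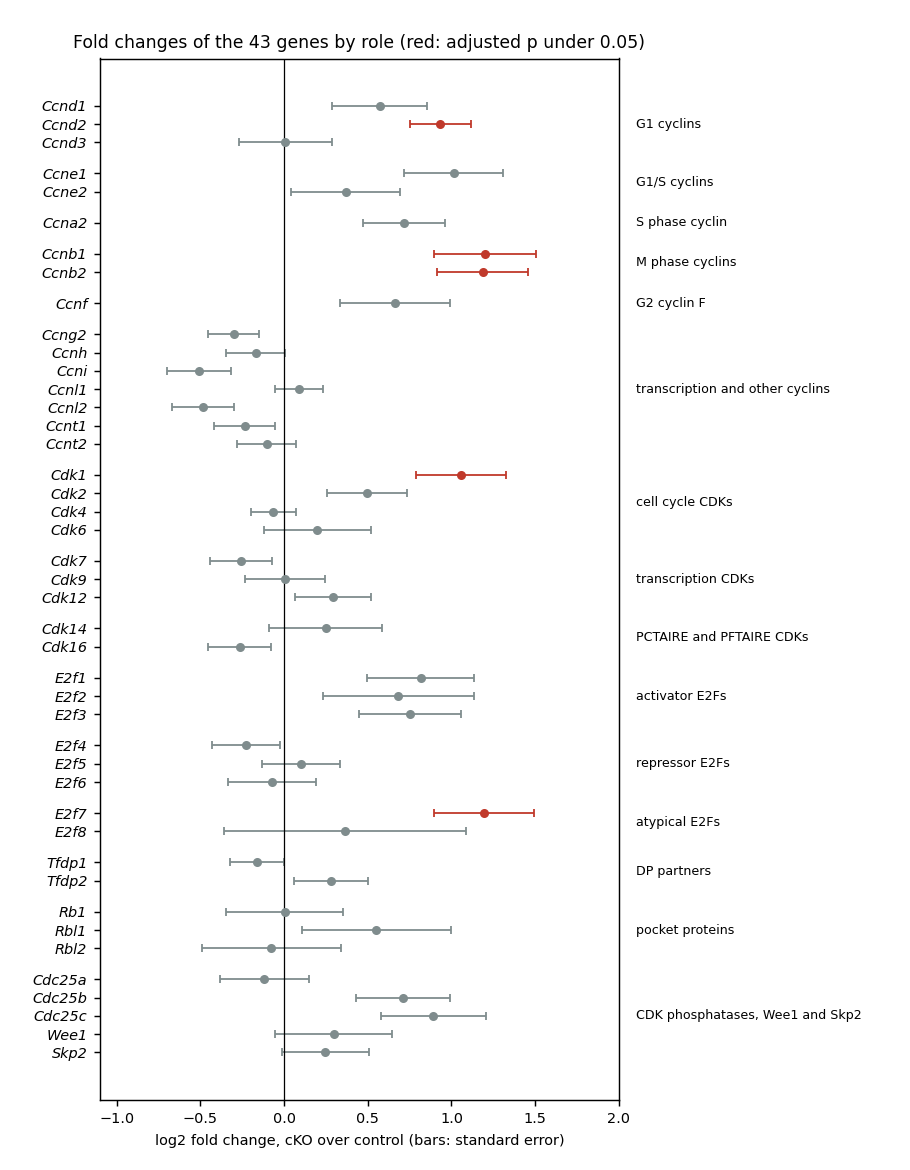
Log2 fold change of each of the 43 genes in cKO (n = 3) over control (n = 7), ordered by role, with bars of 1 standard error. Red points have an adjusted p under 0.05; these are Ccnd2, Ccnb1, Ccnb2, Cdk1 and E2f7, all to the right of 0, between 0.93 and 1.20.

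Of the 3 D-type cyclins, which act in G1, 1 rose. Ccnd2 (chromosome 6, 127125162 to 127152193) had 572, 767 and 607 CPM in cKO replicates 1, 2 and 3, and 241 to 443 CPM in controls with a median of 369. Every cKO library lay above every control, and the means were 649 ± 104 (SD, n = 3) and 340 ± 79.8 (SD, n = 7). Ccnd2 rose by 0.93 on the log2 scale with a standard error of 0.18 (adjusted p = 0.00575). The projection neuron and Cajal-Retzius marker sums also parted the groups without overlap, and their part in the level of Ccnd2 was not tested. Ccnd2 passed the test under each of the 20 alternatives run, with an adjusted p of 7.53e-08 (no filter on low counts) to 0.0494 (replicates 1 to 3 alone). Ccnd1, the other cyclin D of cortical progenitors, had 22.3, 31.9 and 26.7 CPM in the cKO libraries and 10.7 to 28.5 in controls (median 16.9). The groups overlapped, and its log2 fold change of 0.57 with a standard error of 0.28 did not pass (adjusted p = 0.332). Ccnd3 had 84.0, 24.8 and 57.3 CPM in cKO and 44.7 to 80.6 in controls (median 51.2). Its cKO values ran from below the lowest control to above the highest, and its log2 fold change was 0.01 with a standard error of 0.28 (adjusted p = 0.992), a value near 0 whose sign changed with the settings. Per kilobase of exon, Ccnd2 was the most abundant D-type transcript in controls, at 36.1 CPM per kilobase against 6.35 for Ccnd3 and 3.83 for Ccnd1.

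Ccne1 and Ccne2 encode the E-type cyclins that activate Cdk2 at the G1/S boundary. Ccne1 had 12.82, 27.6 and 20.4 CPM in cKO and 8.21 to 12.80 in controls (median 9.12). Every cKO library lay above every control, though cKO replicate 1 by a narrow margin, and the log2 fold change of 1.01 with a standard error of 0.30 missed the threshold (adjusted p = 0.0769). DESeq2 in place of edgeR called Ccne1, as did edgeR without cKO replicate 1. Ccne2 had 9.11, 20.9 and 19.5 CPM in cKO and 9.71 to 19.5 in controls (median 11.1), with a log2 fold change of 0.37 and a standard error of 0.33 (adjusted p = 0.648). Its lowest value over all libraries was that of cKO replicate 1.

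Ccna2, the cyclin of S phase and G2, had 61.0, 151 and 136 CPM in cKO replicates 1, 2 and 3 and 58.9 to 109 in controls (median 66.0). Replicates 2 and 3 lay above every control while replicate 1 lay below the control median. The log2 fold change was 0.72 with a standard error of 0.25 (adjusted p = 0.132), and Ccna2 passed without cKO replicate 1 or without a filter on low counts.

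Both B-type cyclins among the 43 genes, which bind Cdk1 and drive mitosis, rose. With E2f7 they had the 3 largest log2 fold changes of the 43 genes. Ccnb1 (chromosome 13, 100778650 to 100786570) had 65.4, 182 and 143 CPM in cKO and 27.6 to 94.9 in controls (median 54.4). Means were 130 ± 59.5 (SD, n = 3) and 57.6 ± 22.4 (SD, n = 7), and Ccnb1 rose by 1.20 on the log2 scale with a standard error of 0.30 (adjusted p = 0.0352). Again cKO replicates 2 and 3 lay above every control, and replicate 1 fell inside their range. Ccnb2 (chromosome 9, 70407692 to 70421547) had 83.0, 243 and 183 CPM in cKO and 41.4 to 114 in controls (median 76.8), with the same order of cKO libraries. It rose by 1.19 on the log2 scale with a standard error of 0.27 (adjusted p = 0.0195). Neither passed without cKO replicate 2, where the log2 fold changes were 0.86 and 0.81, or without cKO replicate 3, where they were 1.12 and 1.13. Ccnb1 also missed the threshold without control replicate 1, 2, 3, 4 or 7 (edgeR adjusted p = 0.0596, 0.0783, 0.0751, 0.0532 and 0.062), 7 of the 20 alternatives in all, and Ccnb2 also in replicates 1 to 3 without the block (adjusted p = 0.0608), 3 of 20 in all. Reads that match more than 1 place were removed by the authors, so reads from stretches that a gene shares with a processed copy would be lost, and the copies Ccnb1-ps, Ccnb2-ps and Ccnd3-ps held 9, 130 and 3 reads over the 10 libraries.

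Cyclin F (Ccnf), an F-box protein of the ubiquitin ligase SCF that peaks in G2, had 15.2, 23.6 and 19.1 CPM in cKO and 4.72 to 19.8 in controls (median 12.4). The groups overlapped and the log2 fold change of 0.66 with a standard error of 0.33 did not pass (adjusted p = 0.341).

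**Figure D2:**
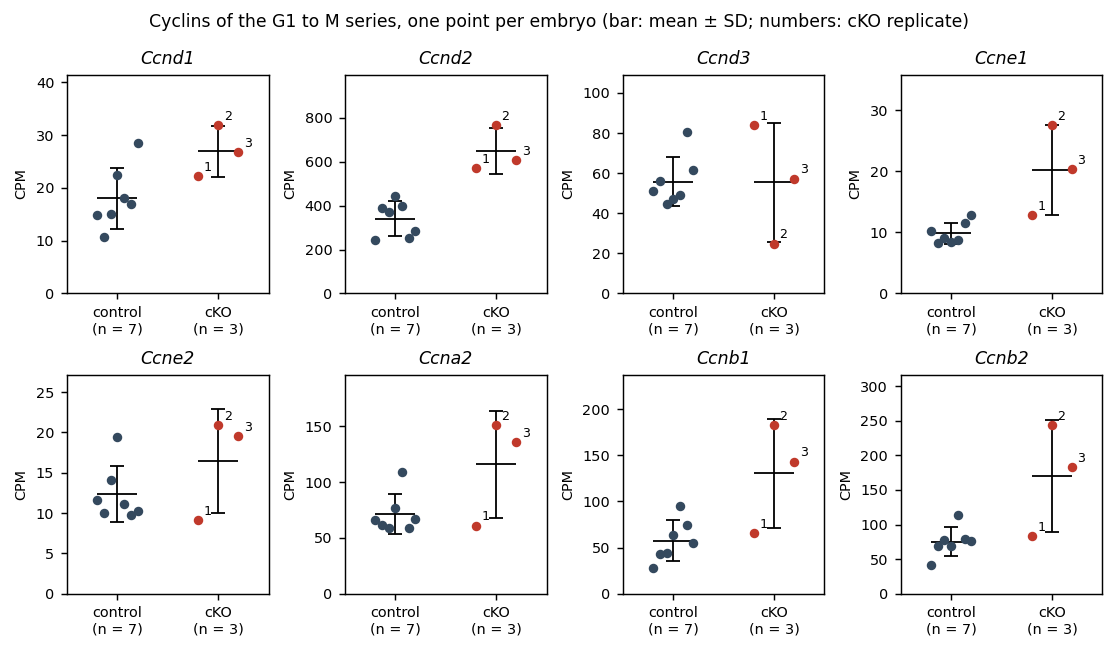
CPM of the 8 cyclins of the G1 to M series in each library (1 point per embryo, linear axes from 0), with the mean and SD of each group; the numbers give the cKO replicate. All 3 cKO points lie above the controls for Ccnd2 and Ccne1, whereas for Ccna2, Ccnb1 and Ccnb2 replicates 2 and 3 lie above and replicate 1 lies among the controls.

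The phases were set side by side by summing CPM within each library. For the G1 cyclins the sums were 678, 824 and 691 CPM in cKO replicates 1, 2 and 3 and 307 to 513 in controls, a ratio of means of 1.77 with no overlap. For the E-type cyclins they were 21.9, 48.5 and 39.9 CPM and 18.2 to 27.9, a ratio of 1.66. Ccna2 alone gave a ratio of 1.63. The M phase cyclins summed to 148, 426 and 326 CPM in cKO and to 68.9 to 208 in controls, a ratio of 2.26. Thus the sum of cKO replicate 1 stood above every control for the G1 cyclins and among the controls for the E-type, S phase and M phase cyclins. Most of each G1 sum was Ccnd2, 572 of 678 CPM in cKO replicate 1, where Ccnd1 lay within the control range. In the E-type sum of that library Ccne1 was level with the highest control (12.82 against 12.80 CPM) and Ccne2 was below every control (9.11 CPM against a lowest control of 9.71). The M phase sum divided by the G1 sum, which therefore rests largely on Ccnd2, was 0.219 in cKO replicate 1, which is below the 0.224 of the lowest control, and 0.517 and 0.471 in cKO replicates 2 and 3, which are above the 0.447 of the highest. Control replicate 5 was the highest control for the S phase and M phase cyclins, at 109 and 208 CPM, and it also had the highest radial glial sum of all libraries. The other controls did not keep that order. Control replicate 6 had 154 CPM of M phase cyclins with a radial glial sum of 1661 CPM. Control replicate 1 had the lowest M phase sum, 68.9 CPM, with a radial glial sum of 1908 CPM, where the control median was 1841 CPM. Among the cKO libraries the radial glial sum had the order of the M phase sum, lowest in replicate 1 and highest in replicate 2. With the radial glial sum as a covariate in the fit, an alternative added after the data had been seen, the same 5 genes passed where 2.96% of all genes were called higher, and the log2 fold changes were 0.91 for Ccnd2, 1.05 for Ccnb1 and 1.02 for Ccnb2.

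**Figure D3:**
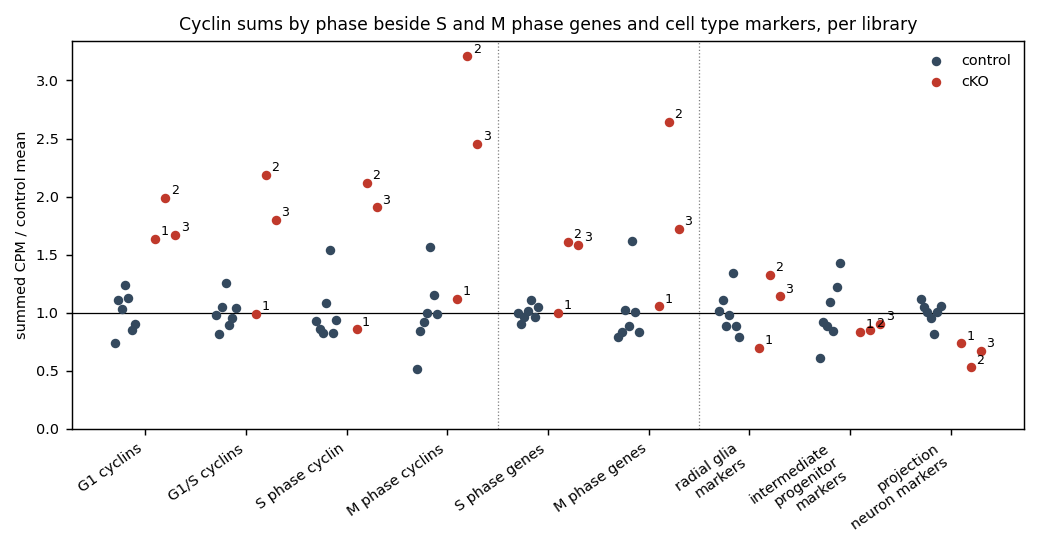
Summed CPM of each library divided by the control mean, for cyclins by phase, for lists of S phase and M phase genes, and for markers of 3 cell types (points are embryos; numbers give the cKO replicate). G1 cyclin sums of cKO lie at 1.64 to 1.99 with all controls at or below 1.24, while cKO replicate 1 lies at 1.12 for the M phase cyclins, inside the control range.

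Of the 4 CDKs of the cycle, 1 rose. Cdk1, the kinase of mitosis (chromosome 10, 69335146 to 69352938), had 89.0, 257 and 152 CPM in cKO replicates 1, 2 and 3 and 56.4 to 117 in controls (median 70.6). Replicate 1 lay inside the control range, and Cdk1 rose by 1.05 on the log2 scale with a standard error of 0.27 (adjusted p = 0.0356). Cdk1 did not pass in 8 of the 20 alternatives. These were the fits without cKO replicate 2 (log2 fold change 0.58) or 3, those without control replicate 2, 3, 4 or 7, and both fits of replicates 1 to 3 alone, with edgeR adjusted p of 0.0685 to 0.24. Cdk2, the partner of cyclins E and A, had 25.6, 40.2 and 55.6 CPM in cKO and 23.0 to 33.2 in controls (median 29.5), and its log2 fold change was 0.50 with a standard error of 0.24 (adjusted p = 0.319). Cdk4, a partner of the D-type cyclins, had 1029, 1197 and 1468 CPM in cKO and 1030.1 to 1445 in controls. Its log2 fold change was -0.06 with a 95% interval of -0.35 to 0.22, and per kilobase of exon it was the most abundant of the 43 transcripts, at 379 CPM per kilobase in cKO and 396 in controls. Cdk6, the other partner of the D-type cyclins, had 55.0, 166 and 76.4 CPM in cKO and 50.7 to 129 in controls (median 87.1). Its log2 fold change of 0.20 with a standard error of 0.32 (adjusted p = 0.826) rested on cKO replicate 2 and was -0.41 without it.

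The remaining kinases and cyclins act mainly in transcription or outside the cycle. Cdk7, the CDK-activating kinase that pairs with cyclin H and is also part of TFIIH, had 45.5, 51.2 and 56.0 CPM in cKO and 50.9 to 74.0 in controls, with a log2 fold change of -0.26 and a standard error of 0.19 (adjusted p = 0.549). Ccnh itself stood at -0.17. Cdk9, the kinase of the elongation factor P-TEFb, was at 0.00, and its cyclins Ccnt1 and Ccnt2 were at -0.24 and -0.10, none of them past the test. Cdk12, a kinase of the RNA polymerase II tail, had a log2 fold change of 0.29. The PCTAIRE kinase Cdk16 had 168, 125 and 138 CPM in cKO and 133 to 251 in controls (log2 fold change -0.26, standard error 0.19, adjusted p = 0.538), and the PFTAIRE kinase Cdk14 had a log2 fold change of 0.25 with a standard error of 0.34. Of the 7 cyclins with roles in transcription, splicing or elsewhere, 6 had negative values and 0 passed. Ccnl2, a cyclin linked to splicing, had 107, 64.6 and 113 CPM in cKO and 108 to 150 in controls, with a log2 fold change of -0.48 and a standard error of 0.18 (adjusted p = 0.189), and Ccnl1 stood at 0.09. Ccni and Ccng2, cyclins found in non-dividing cells, stood at -0.51 and -0.30. Ccni, named here after its values were seen, was called lower without cKO replicate 2 (unadjusted p = 0.019 with all libraries).

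Among the E2F factors, the activators E2f1, E2f2 and E2f3 all had positive values and the repressors E2f4, E2f5 and E2f6 lay near 0. E2f1 had 27.7, 20.9 and 13.2 CPM in cKO replicates 1, 2 and 3 and 4.64 to 16 in controls (median 12.6). Replicate 1 was the highest cKO library for E2f1, where it was the lowest for the B-type cyclins. The log2 fold change of E2f1 was 0.82 with a standard error of 0.32 (adjusted p = 0.203). E2f2 and E2f3 stood at 0.68 with a standard error of 0.45 and at 0.75 with a standard error of 0.30. E2f4, which acts with p107 and p130 in resting cells, had 40.1, 49.6 and 56.0 CPM in cKO and 39.0 to 66.2 in controls (log2 fold change -0.23, standard error 0.20, adjusted p = 0.646). E2f5 and E2f6 were at 0.10 and -0.08.

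The atypical E2Fs, E2f7 and E2f8, bind DNA without a DP partner and repress E2F targets. E2f7 (chromosome 10, 110745439 to 110787384) had 25.6, 31.5 and 15.3 CPM in cKO and 6.81 to 15.1 in controls (median 11.5). Every cKO library lay above every control, replicate 3 narrowly. E2f7 rose by 1.19 on the log2 scale with a standard error of 0.30 (adjusted p = 0.0357). It did not pass in 9 of the 20 alternatives. These were the fits without cKO replicate 1 or 2, those without control replicate 1, 2, 4 or 7, both fits of replicates 1 to 3 alone, and that with the percentage of reads falling outside genes as a covariate, with edgeR adjusted p of 0.0573 to 0.307. The related E2f8 had few reads, 0, 26 and 17 in cKO replicates 1, 2 and 3 and 1 to 24 in controls, or 0, 10.2 and 7.21 CPM in cKO and 0.356 to 11.6 in controls. The groups overlapped, and 3 reads in cKO replicate 1 would have given 1.01 CPM. Its log2 fold change was 0.36 with a standard error of 0.73. Its values per library are given after they were seen, for the library without a read.

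DP partners and pocket proteins did not pass the test. Tfdp1 and Tfdp2, which pair with E2f1 to E2f6, had log2 fold changes of -0.16 and 0.28, and Tfdp2 had 46.2, 65.8 and 71.3 CPM in cKO and 34.5 to 64.5 in controls (adjusted p = 0.594). Rb1, which encodes the retinoblastoma protein, had 12.5, 48.1 and 14.4 CPM in cKO and 20.0 to 32.7 in controls (median 23.0). The 3 cKO values all lay outside the control range, 2 below and 1 above, and the log2 fold change was 0.00 with a standard error of 0.35 (adjusted p = 0.998). Rbl1, an E2F target as well as an E2F repressor, had 2.70, 20.5 and 10.2 CPM in cKO and 4.28 to 9.90 in controls (log2 fold change 0.55, standard error 0.45, adjusted p = 0.61), and Rbl2 stood at -0.08 with a standard error of 0.42. Rb1 and Rbl1 were negative without cKO replicate 2, at -0.89 and -0.29.

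Among the enzymes that act on CDK phosphorylation, Cdc25c, the phosphatase that activates Cdk1 at mitosis, had 22.3, 52.8 and 28.0 CPM in cKO and 10.9 to 27.9 in controls (median 17.8). Its log2 fold change was 0.89 with a standard error of 0.31 (adjusted p = 0.147). Cdc25b, which starts Cdk1 activation in G2, stood at 0.71 with a standard error of 0.28 (adjusted p = 0.209), and Cdc25a, which acts at G1/S and later, at -0.12. Wee1, the kinase that inhibits Cdk1, stood at 0.30, and Skp2, the ubiquitin ligase subunit that marks p27KIP1 and p57KIP2 for degradation, at 0.25. The 19 genes not given per library ran from -0.51 (Ccni) to 0.75 (E2f3), with 10 positive and 9 negative and no adjusted p below 0.192.

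**Figure D4:**
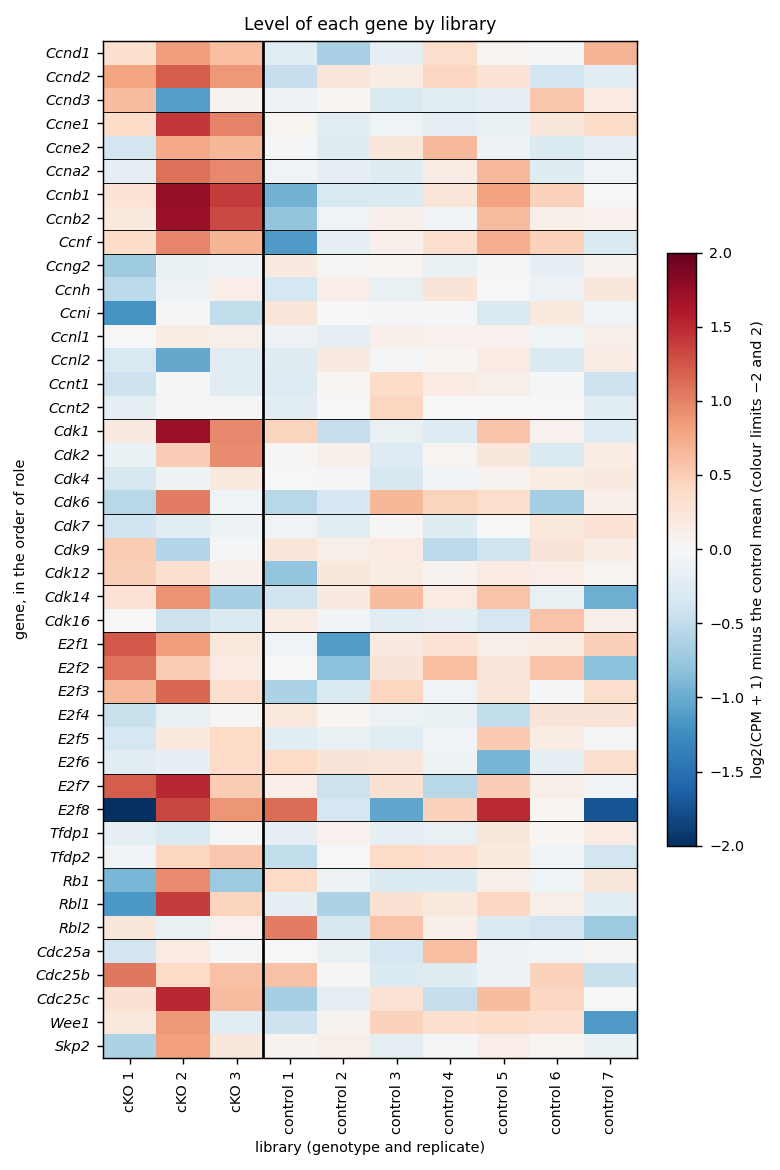
Level of each of the 43 genes in every library, as log2(CPM + 1) minus the mean of the 7 controls, with genes in the order of role and colour limits of -2 and 2. In cKO replicates 2 and 3 the band from Ccne1 to Ccnf is red. In cKO replicate 1 that band is paler, with Ccne2 and Ccna2 below the control mean, while Ccnd2 above it is red. E2f1, E2f2, E2f7 and Cdc25b are also red in cKO replicate 1.

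Values were also set side by side within the sets of libraries with a lower and a higher share of reads outside genes, with no test since the sets hold 1 and 2 cKO libraries. The ratio of the cKO mean to the control mean was 2.08 and 1.66 for Ccnd2 in the lower and the higher set, and 2.85 and 1.83 for Ccnb1. It was 2.75 and 1.88 for Ccnb2 and 1.95 and 2.05 for Cdk1. For E2f7 it was 1.51 and 2.44. These genes were called higher in the same libraries, so ratios above 1 in both sets are not separate evidence. In the higher set, cKO replicate 1 lay within the range of that set's controls for Ccnb1, at 65.4 CPM against 44.1 to 94.9. The same held for Ccnb2, at 83.0 CPM against 69.4 to 114, and for Cdk1, at 89.0 CPM against 65.5 to 117. For Ccne2 the ratio was 1.88 and 1.01, and for Rb1 0.54 and 1.36.

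Other genes of the cycle, taken from lists chosen by function, were counted in the same fit, in which 2.27% of all genes were called higher, 0.883% lower, and 51.3% had a positive log2 fold change. Of 25 S phase genes, 25 were tested, 3 rose and 0 fell: Uhrf1, a maintenance factor of DNA methylation, rose from 18.2 ± 3.41 CPM (SD, n = 7) to 36.9 ± 10.7 CPM (SD, n = 3), Tipin of the replication fork by 0.71 and Mcm5 of the replicative helicase by 0.91 on the log2 scale. The median of the list was 0.51, and all 25 values were positive. Of 24 M phase genes, 24 were tested, 4 rose (Ube2c, Cdca3, Birc5 and Cenpf) and 0 fell, with a median of 0.79 and all 24 values positive. These counts moved with single libraries. Without cKO replicate 1, 9 S phase and 11 M phase genes were called higher, and without cKO replicate 2 it was 0 of each list. Without cKO replicate 3 it was 0 and 1, and with 1 control left out 0 to 2 and 2 to 5. The medians ran from 0.40 to 0.67 for the S phase list and from 0.26 to 1.17 for the M phase list, and at least 22 values of each list stayed positive. Ube2c, the ubiquitin-conjugating enzyme of the anaphase-promoting complex, rose by 1.35 with a standard error of 0.28 (adjusted p = 0.00936), and missed the threshold only without cKO replicate 2 among the fits with 1 library left out (1.02, adjusted p = 0.0588). Summed M phase genes stood at 992, 2483 and 1620 CPM in cKO replicates 1, 2 and 3 and at 744 to 1523 in controls, and summed S phase genes at 1350, 2175 and 2139 and 1222 to 1497. As for the M phase cyclins, cKO replicate 1 lay within the control range for both lists. Of 19 regulators of CDKs and E2Fs, such as Cks1b, Cks2, Foxm1 and the Lin subunits of DREAM, 0 were called in either direction, with 3 higher and 1 lower at an unadjusted p under 0.05. Over all genes tested, 9.25% were higher and 7.11% lower at that cut. Of 22 other cyclin and CDK family genes, 17 were tested, and 1 rose, Cdk5r2, an activator of the neuronal kinase Cdk5, by 2.06 with a standard error of 0.53 (adjusted p = 0.031). Its values were 18.6, 3.94 and 4.24 CPM in cKO replicates 1, 2 and 3 and 1.16 to 3.57 CPM in controls, so cKO replicate 1 carried most of the difference. Without that library Cdk5r2 had too few reads to be tested, and without control replicate 1, 3, 4, 5 or 7 it did not pass (adjusted p = 0.0544 to 0.0709). The median of that list was -0.01.

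Promoters of the members were read from RefSeq (GRCm38.p6), in windows of 300 bases from 250 before to 50 after the transcription start. Windows were found for 33 of the 43 genes, 40 in all, and 37 of them ended inside a transcript of the annotation. Words searched on both strands were TTTCCCGC, TTTGGCGC, TTTCGCGC and TTTGCCGC (E2F words), TTTGAA (the CHR word) and CCAAT, and none of the 3 kinds is part of another. An E2F word occurred in 22.5% of the 40 member windows, of 8 genes (Cdc25a, Cdk1, Cdk2, E2f2, E2f3, E2f7, Rbl1 and Tfdp1), and in 2.265% of all 32851 windows. The CHR word occurred in 25.0% of member windows and 17.893% of all, CCAAT in 45.0% and 37.408%, and CHR together with CCAAT in 20.0% and 6.953%. For comparison, the CHR word occurred in 76.19% of the 21 windows found for M phase genes (21 of 24 genes) and in 9.091% of the 22 windows found for S phase genes (20 of 25 genes), and an E2F word in 0% and 40.909%. A match is a description of the letters and not of a bound site.

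No window was found for Ccnd2, so its promoter was not read. The windows of the 4 other called genes are shown because they hold different combinations of these words, which are in capitals: Ccnb1 (chr13:100786437-100786736, minus strand), Ccnb2 (chr9:70421505-70421804, minus strand), Cdk1 (chr10:69352863-69353162, minus strand) and E2f7 (chr10:110745189-110745488, plus strand). Each is written 5′ to 3′ along the gene, and the reverse complement of a word reads GCGGGAAA for TTTCCCGC, TTCAAA for TTTGAA and ATTGG for CCAAT.
Ccnb1: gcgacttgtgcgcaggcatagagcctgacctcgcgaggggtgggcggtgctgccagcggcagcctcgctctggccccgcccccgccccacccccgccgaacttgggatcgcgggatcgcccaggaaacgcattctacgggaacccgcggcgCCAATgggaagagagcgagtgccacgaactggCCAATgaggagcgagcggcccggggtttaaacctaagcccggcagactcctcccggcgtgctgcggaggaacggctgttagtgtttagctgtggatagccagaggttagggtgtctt
Ccnb2: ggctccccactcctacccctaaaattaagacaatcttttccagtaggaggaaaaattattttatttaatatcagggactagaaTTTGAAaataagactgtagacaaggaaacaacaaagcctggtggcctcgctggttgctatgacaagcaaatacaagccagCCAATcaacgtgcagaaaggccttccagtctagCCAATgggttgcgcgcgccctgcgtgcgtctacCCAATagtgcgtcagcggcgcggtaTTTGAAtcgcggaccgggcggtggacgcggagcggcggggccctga
Cdk1: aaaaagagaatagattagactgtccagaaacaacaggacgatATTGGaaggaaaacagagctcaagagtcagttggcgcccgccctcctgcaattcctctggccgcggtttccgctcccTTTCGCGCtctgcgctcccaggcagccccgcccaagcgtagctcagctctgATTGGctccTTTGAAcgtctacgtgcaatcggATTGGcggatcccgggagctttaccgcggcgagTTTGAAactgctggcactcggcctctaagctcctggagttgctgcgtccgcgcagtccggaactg
E2f7: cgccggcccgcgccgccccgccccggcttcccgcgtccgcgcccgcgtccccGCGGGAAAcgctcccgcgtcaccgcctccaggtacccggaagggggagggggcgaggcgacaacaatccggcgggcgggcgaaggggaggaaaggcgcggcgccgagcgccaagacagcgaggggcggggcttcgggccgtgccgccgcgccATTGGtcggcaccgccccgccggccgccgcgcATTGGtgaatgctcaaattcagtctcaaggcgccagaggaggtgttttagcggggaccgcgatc

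Ccnb1 held CCAAT at -99 and -67 and no CHR word in these letters. Ccnb2 held CCAAT at -87, -54 and -21 and the CHR word at -167 and 5. Cdk1 held all 3 kinds, with the E2F word TTTCGCGC at -131 and CHR words at -71 and -15. E2f7 held the E2F word at -198 and CCAAT at -46 and -14, with no CHR word. The positions give the first base of each word from the transcription start.

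**Figure D5:**
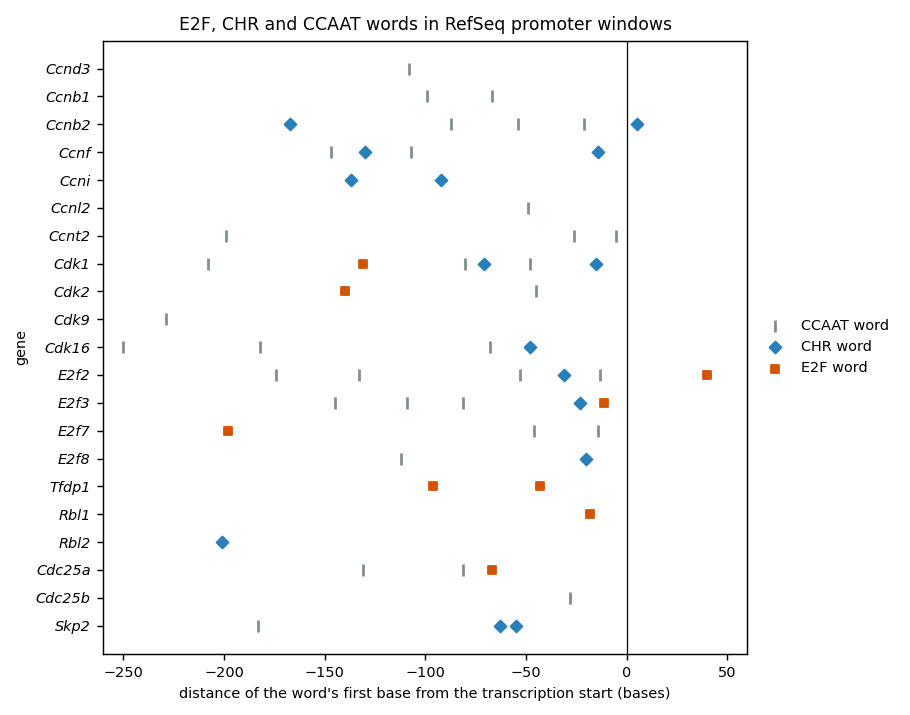
Position of E2F words (squares), CHR words (diamonds) and CCAAT words (ticks) in promoter windows of the members that hold at least 1 of them, as the distance in bases from the transcription start, genes in the order of role and the windows of a gene with several starts overlaid. E2F words lie in the windows of 8 genes, and Cdk1, E2f2 and E2f3 are the genes with all 3 kinds.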

How the data were processed

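Sorted cells of 10 embryos (3 cKO, 7 control; groups and replicate numbers from the sample titles) were profiled with Smart-Seq2, which amplifies full-length cDNA without molecular identifiers, so no step turned reads into molecules. Before deposit, the authors combined technical replicates, aligned reads to GRCm38 with STAR (2.5.0c; bedtools 2.26.0 in the submitters' processing notes), removed reads with more than 1 alignment, and deposited raw read counts per GENCODE M16 gene, not normalized. The unstranded count was used. Reads that overlap several genes are left out of it, so overlapping and antisense genes, here most of all Rbl2, Ccnd1, Rb1 and Ccna2, are counted too low. This also holds for Cdkn1c, whose strand-specific counts summed to 1.89 times its unstranded count. Symbols and positions came from GENCODE M21 (GRCm38), where 50604 identifiers matched with version, 2670 without, and 105 not.

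The 43 genes and all lists were chosen with earlier results of these data known. Genes whose mean count reached 10 reads were tested with edgeR 4.0.16 (R 4.3.3; TMM, quasi-likelihood, genotype alone, legacy = FALSE), with Benjamini-Hochberg adjustment over all 11551 genes and a threshold of 0.05. The procedure was tested on simulated data. Per-library values are given for genes past the threshold, the cyclins and CDKs of the G1 to M series, E2f1, Rb1 and the gene with the smallest p in each role; other lists are counted, naming at most the 3 called genes with the smallest p, and Cdkn1c and Cdkn1a. Cenpf, the other called M phase gene, was named after its values were seen. Alternatives were DESeq2 1.42.0, its size factors, other filters, the sum of the strand-specific counts, covariates, robust dispersion, a replicate block and each library left out. Library totals limit counting error only, and no library pair within a genotype agreed within sampling noise (24 pairs, chi-square per degree of freedom 4.69 to 20.9). Figures used matplotlib 3.10.9. One of the cell type markers is not reported here and was left out of its list's counts and sums.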

Additional observations from a re-analysis of the deposited data

Results flagged for a closer look

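Ccna2 was far from the other controls in control replicate 5, at 109 CPM where the next control had 76.8, a gap of 0.645 of the whole range of the 7 controls against a critical value of 0.568 (Dixon). The summed CPM of the S phase cyclin is the same value, 109, since Ccna2 is the only gene in it. Control replicate 5 was also the shallowest library, with 1738220 reads on genes, and had the highest radial glial marker sum, 2519 CPM; their part in the value was not tested. Of 27 values examined in this way 2 stood out, where chance at 1 in 20 gives 1.35.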

How the results depend on the processing

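Ccnd2 was called under each of the 20 alternatives run. Over all genes tested 364 were called, and the number was 961 with no filter on low counts, 230 with the replicate block (cKO and control replicates 1 to 3 only) and 151 in those 6 libraries without the block. Of the 43 genes, 5 were called higher; the replicate block left 3 (Ccnb1, Ccnb2 and Ccnd2), the same libraries without the block 2, and leaving out 1 library 1 to 6 higher and 0 to 1 lower. The replicate numbers did not pair the samples (correlation of deviations 0.041, -0.10 and -0.21 for numbers 1, 2 and 3), and none of the libraries numbered 1 to 3 correlated best with its own number. Reversed log2 fold changes, over all 43 genes, belonged to genes with an adjusted p of at least 0.61. Ccnd3 (0.01) was -0.023 with no filter, -0.0097 with at least 10 reads in at least 3 libraries, -0.037 with the strand-specific counts, -0.020 with radial glial markers as a covariate, and -0.46 to 0.34 with 1 library left out. Rb1 (0.00) was -0.018, -0.011 and -0.13 under the first 2 and the last of these, -0.14 with the replicate block, -0.015 without it in the same libraries, and -0.89 to 0.36 with 1 library left out. Cdk4 (-0.06) was 0.037 with the replicate block, 0.046 without it, and -0.21 to 0.047 with 1 library left out. Cdk9 (0.00) was -0.023 and -0.012 under the other filters, -0.19 with the replicate block and -0.14 without it, Cdc25a (-0.12) was 0.076 and 0.083 in the last 2, Rbl2 (-0.08) was 0.063 with the strand-specific counts, E2f6 (-0.08) was 0.011 with reads outside genes as a covariate, and E2f8 (0.36) was -0.27 with radial glial markers. With 1 library left out, Cdk6 ran from -0.41 to 0.50, Rbl1 from -0.29 to 1.07, Cdk9 from -0.34 to 0.23, Cdk14 from -0.17 to 0.55, E2f5 from -0.064 to 0.31, E2f6 from -0.29 to 0.041, E2f8 from -0.41 to 1.03, Rbl2 from -0.19 to 0.16, Cdc25a from -0.28 to 0.034, Wee1 from -0.064 to 0.50 and Skp2 from -0.19 to 0.57. The causes were not tested. The covariate of radial glial markers and the fit of 6 libraries without the block were chosen after seeing the data. With 3 cKO libraries and a median standard error of 0.27, values such as the 0.57 of Ccnd1 did not pass, and E2f8, with 12.5 reads on average, had the largest standard error of the 43 genes, 0.73.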
